A study of Mus musculus with 6 samples.

Results

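Chemokine receptors direct where a T cell goes, and 9 of their genes were followed here in mouse CD4+ T cells treated with idelalisib: Ccr2, Ccr4, Ccr6, Ccr7, Ccr8, Cxcr3, Cxcr4, Cxcr5 and Cxcr6. They were chosen by name from the 54532 genes of the deposited count table, each symbol matched 1 entry, and all 9 were among the 14530 genes that passed the filter on low counts. The cells were CD4+ T cells purified from spleens of C57BL/6 mice and cultured for 72 h under conditions that drive T helper 1 (Th1) differentiation. The control group was cultured without idelalisib and the other group with it, and each group has 3 biological replicates. Idelalisib blocks the delta isoform of phosphoinositide 3-kinase (PI3K). Its dose, any solvent in the controls and whether each replicate came from its own mouse are not stated in the labels, so p-values reflect only how these cultures varied, possibly for technical reasons.

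Chemokine receptors are G protein-coupled receptors that span the cell membrane and bind small secreted proteins, the chemokines. Binding releases inhibitory G proteins, whose subunits activate PI3K gamma and the actin machinery, so that the cell migrates towards the chemokine. CCR7 takes naive and central memory T cells into lymph nodes and CXCR4 holds cells where CXCL12 is made. CXCR3 is the receptor that marks Th1 cells and takes them to inflamed tissue, CCR4 and CCR8 are known from Th2 and regulatory T cells, CCR6 from Th17 cells and CXCR5 from follicular helper T cells. CCR2 and CXCR6 are found on effector and memory T cells.

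Library totals ranged from 13372318 to 16770452 reads, so 1 CPM (the count scaled to sequencing depth by the trimmed mean of M-values, TMM) stands for 13.99 to 16.74 reads. All 9 markers of CD4+ T cells passed the filter, with a summed level of 3547 to 3615 CPM in control and 3279 to 3588 CPM in idelalisib libraries. Of 2 CD8+ T cell markers Cd8a was higher with idelalisib, at 1.82 ± 0.606 and 3.40 ± 1.27 CPM (edgeR adjusted p = 0.036). Cd8b1 did not pass, at 4.22 ± 1.26 and 4.66 ± 0.374 CPM (edgeR adjusted p = 0.671). For both markers the groups overlapped. Of 9 B cell markers tested 6 were higher with idelalisib, by 0.85 (Cd22) to 2.00 (Blk) on the log2 scale, and 3 did not pass. These calls are 66.7% of the 9, against 44.6% of all tested genes. Blk had 1, 4 and 4 reads in control and 14, 10 and 14 in idelalisib libraries. Ms4a1, Fcer2a and Cr2 of the same list were too low to test. They had 28, 29 and 10 reads over the control and 24, 23 and 7 over the idelalisib libraries. The summed level of all 12 on that list was 52.4 to 54.1 CPM in control and 60.8 to 75.0 CPM in idelalisib libraries. Most of that sum was Ighm, at 43.4 ± 1.24 and 51.0 ± 9.30 CPM, which did not pass (edgeR adjusted p = 0.125). The part of the B cell and CD8+ T cell markers in the receptor results was not tested. Of 9 monocyte or macrophage markers only Cd68 passed the filter, and it was lower with idelalisib (log2 fold change -0.66, edgeR adjusted p = 0.00372). In these bulk cultures a change in the share of cells that carry a receptor and a change in RNA per cell cannot be told apart.

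Idelalisib moved the receptors in both directions. With idelalisib 3 of the 9 genes rose (Cxcr3, Ccr2 and Ccr4), 2 fell (Ccr8 and Cxcr4) and 4 did not pass the test (Ccr7, Cxcr6, Cxcr5 and Ccr6), by edgeR's quasi-likelihood test with adjustment over all 14530 genes and an adjusted p under 0.05. Across all tested genes 44.6% were called, 22.2% higher and 22.4% lower (49.7% of calls were higher, or 68.5% when scaled by library size alone), so the 55.6% called among these 9 lies near the background. The median log2 fold change of the 9 was -0.07 and that of all tested genes 0.01. For those 5 receptors CPM did not overlap between groups, and this was so for 54.6% of all tested genes. The 5 calls held in each of the 15 alternative settings tried.

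**Figure D1:**
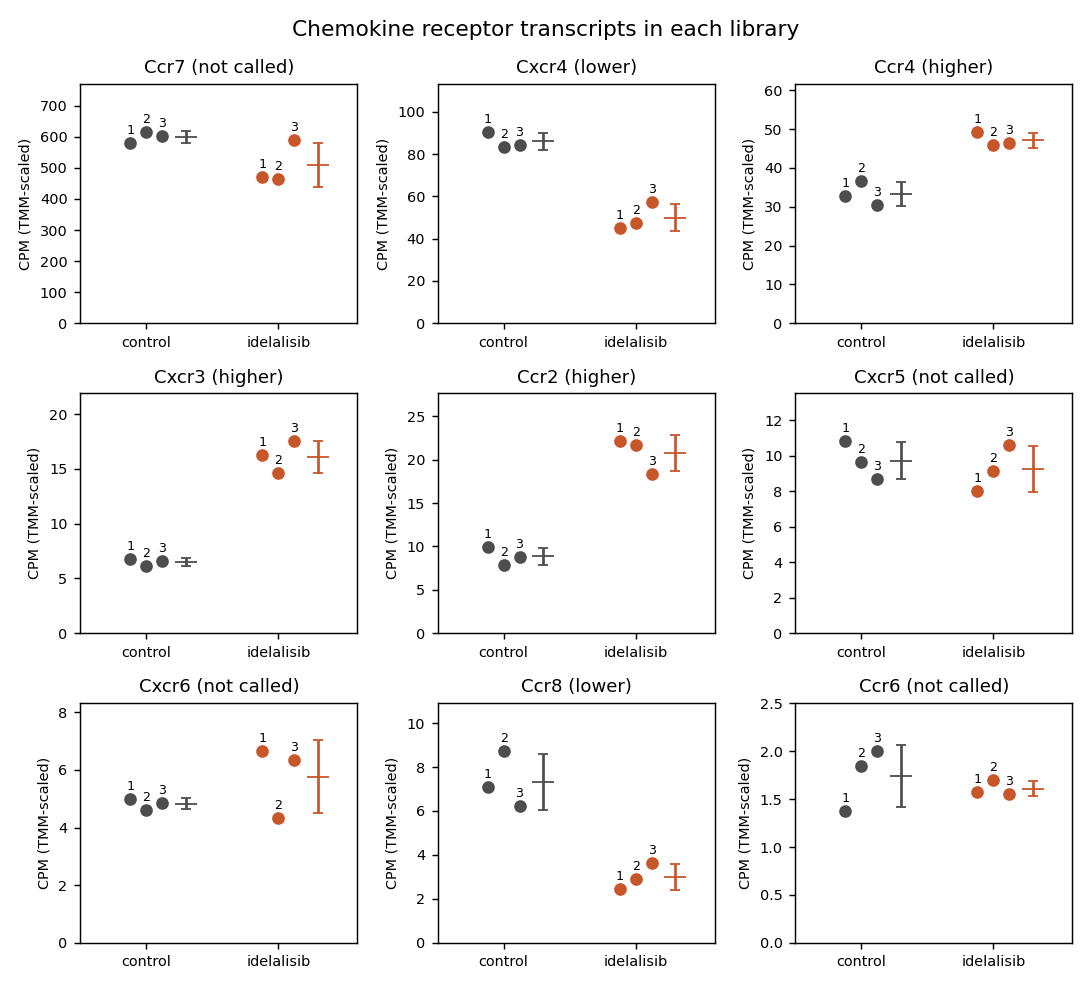
Level of each of the 9 receptor genes in CPM (vertical axes start at 0), 1 point per library with its replicate number, and the mean with its standard deviation beside the points (n = 3 per group). Cxcr3, Ccr2 and Ccr4 lie higher in all idelalisib libraries than in any control library, Ccr8 and Cxcr4 lie lower, and the groups overlap for the other 4.

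Cxcr3, the Th1 receptor for CXCL9, CXCL10 and CXCL11 (ENSMUSG00000050232, mm10 chromosome X, 101731535 to 101734269), was at 6.76, 6.08 and 6.58 CPM in control replicates 1 to 3 and at 16.3, 14.6 and 17.5 CPM in idelalisib replicates 1 to 3. All idelalisib libraries stood above all control libraries. The rise was 2.49-fold, a log2 fold change of 1.32 (standard error 0.15, adjusted p = 9.49e-06 by edgeR). It rests on 92 to 108 reads per control library and 206 to 293 per idelalisib library.

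Ccr2, the receptor for CCL2 on effector T cells and monocytes (ENSMUSG00000049103, chromosome 9, 124101950 to 124113557), was at 9.89, 7.86 and 8.79 CPM in control and at 22.1, 21.7 and 18.3 CPM in idelalisib libraries. The groups were again apart, and the log2 fold change was 1.23 (standard error 0.14, adjusted p = 1.38e-05 by edgeR). Among monocyte markers beside it, Ms4a7 and C1qa had 0 reads in every library, and Csf1r had at most 6. Lyz2 had 3, 2 and 1 reads in control and 9, 12 and 7 in idelalisib libraries. The summed level of the list was 17.2 to 18.1 CPM in control against 10.1 to 13.7 CPM in idelalisib libraries, and its part in the rise of Ccr2 was not tested. Of the 50-base words of its transcripts 1.91% also occur in other genes, and how reads that map to several places were counted is not given in the sources used here, so its level is uncertain to that extent.

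Ccr4, the receptor for CCL17 and CCL22 (ENSMUSG00000047898, chromosome 9, 114490316 to 114504916), rose less. It was at 32.8, 36.7 and 30.4 CPM in control and 49.4, 45.8 and 46.4 CPM in idelalisib libraries. The groups did not overlap, with a 1.42-fold rise (log2 fold change 0.50, standard error 0.10, adjusted p = 0.000926 by edgeR).

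Ccr8, the receptor for CCL1 and CCL8 (ENSMUSG00000042262, chromosome 9, 120092114 to 120094906), had the greatest fall of the 9. Control libraries held 7.07, 8.72 and 6.22 CPM and idelalisib libraries 2.44, 2.90 and 3.64 CPM. The highest idelalisib library lay below the lowest control library. The level was 2.44-fold lower with idelalisib (log2 fold change -1.29, standard error 0.22, adjusted p = 0.000375 by edgeR), on 87 to 132 reads per control and 37 to 61 reads per idelalisib library. Cxcr4, the receptor for CXCL12 (ENSMUSG00000045382, chromosome 1, 128588199 to 128592293), was at 90.7, 83.4 and 84.1 CPM in control and 45.2, 47.3 and 57.2 CPM in idelalisib libraries. It too was lower in each idelalisib library than in any control, by 1.72-fold (log2 fold change -0.79, standard error 0.10, adjusted p = 2.75e-05 by edgeR).

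Ccr7, the lymph node homing receptor (ENSMUSG00000037944, chromosome 11, 99144196 to 99155077), was the most abundant of the 9 receptors. It was at 579.5, 617.1 and 601.7 CPM in control and 470.6, 465.1 and 589.8 CPM in idelalisib libraries. Idelalisib replicate 3 lay inside the control range while the other two lay below it. Its log2 fold change of -0.24 had a 95% confidence interval of -0.44 to -0.04 before correction, and after it the gene missed the threshold (edgeR adjusted p = 0.0535). It was called in 7 of 15 alternatives, and without idelalisib replicate 3 the log2 fold change was -0.35 (adjusted p = 0.000746). Idelalisib replicate 3 was also the nearest of the 3 to the control mean for Ccr2, Ccr8 and Cxcr4, and this was so for 32.9% of all called genes.

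Cxcr6, the receptor for CXCL16 (ENSMUSG00000048521, chromosome 9, 123806475 to 123811760), was at 5.005, 4.624 and 4.861 CPM in control and 6.65, 4.32 and 6.33 CPM in idelalisib libraries. Idelalisib replicates 1 and 3 lay above all controls and replicate 2 below them, and the log2 fold change of 0.26 had an interval of -0.19 to 0.71 (edgeR adjusted p = 0.334). Cxcr5, the receptor for CXCL13 (ENSMUSG00000047880, chromosome 9, 44511787 to 44561877), spanned 8.72 to 10.8 CPM in control and 8.03 to 10.6 CPM in idelalisib libraries. The groups overlapped almost entirely, and the interval of the log2 fold change was -0.42 to 0.28 (edgeR adjusted p = 0.754). Ccr6, the receptor for CCL20 (ENSMUSG00000040899, chromosome 17, 8236043 to 8257141), was the lowest, at 1.38 to 2.00 CPM in control and 1.55 to 1.70 CPM in idelalisib libraries. With 22 to 28 reads per library its interval was -0.77 to 0.55 (edgeR adjusted p = 0.794). B cells also carry Ccr6 and Cxcr5, and the part of the B cell markers in their values was not tested.

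**Figure D2:**
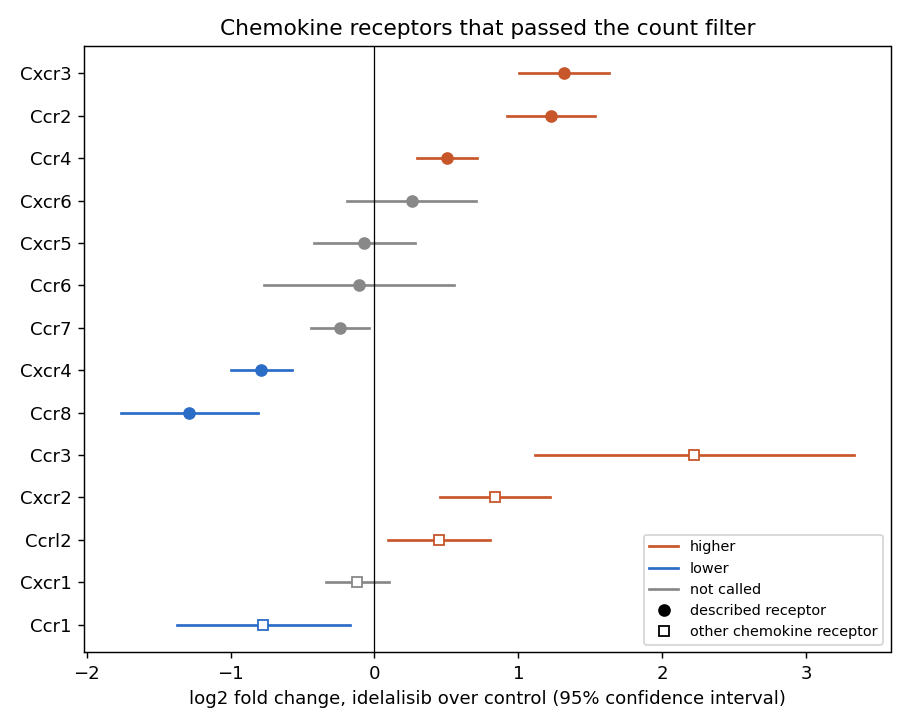
Log2 fold change of idelalisib over control (horizontal axis) with its 95% confidence interval for the 9 receptors (filled circles) and for 5 other chemokine receptors that passed the count filter (open squares), coloured by call. Cxcr3 at 1.32 and Ccr8 at -1.29 are the ends of the 9, and the interval of Ccr7 ends just below 0.

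Reads of 2 of the receptors could be mixed with those of an overlapping gene, since the strand setting of the counting is not given in the sources used here. Cxcr5 overlaps Bcl9l and Cxcr6 overlaps Fyco1, each on the opposite strand. The other 7 overlap no gene of the table. Apart from Ccr2 and Cxcr5, at 1.91% and 1.86% of their 50-base words, and Ccr4 at 0.465%, the receptors shared no such word with another gene.

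Divided by the deposited gene length, the levels could be ordered between receptors. Which transcript forms were expressed was not examined. This order and the shares below could differ if the lengths of those forms differ from the deposited ones. In control libraries the order of CPM per kilobase was Ccr7 at 303.0 ± 9.55, Cxcr4 at 47.6 ± 2.21, Ccr4 at 10.8 ± 1.02, Ccr8 at 6.24 ± 1.08, Cxcr3 at 3.74 ± 0.204, Cxcr5 at 2.92 ± 0.317, Cxcr6 at 2.50 ± 0.0998, Ccr2 at 1.31 ± 0.150 and Ccr6 at 0.751 ± 0.141 (SD, n = 3). No neighbours in this order overlapped over their 3 libraries. With idelalisib the first 3 places were the same, at 257.1 ± 35.6, 27.6 ± 3.53 and 15.3 ± 0.621 CPM per kilobase. Cxcr3 came next at 9.31 ± 0.844, and Ccr6 stayed last at 0.694 ± 0.0336. Between them Ccr2 at 3.07 ± 0.308, Cxcr6 at 2.99 ± 0.654, Cxcr5 at 2.78 ± 0.392 and Ccr8 at 2.55 ± 0.518 overlapped with their neighbours and were not apart.

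Ccr7 made up 78.9% to 80.7% of the summed level per kilobase in control and 79.3% to 81.1% in idelalisib libraries, and these ranges overlapped. Among the other 8 receptors Cxcr4 held 60.6% to 64.0% in control and 40.2% to 45.4% in idelalisib libraries. The share of Ccr4 was 13.5% to 15.6% in control and 21.5% to 25.6% with idelalisib, that of Cxcr3 4.61% to 5.22% and 13.9% to 15.1%, and that of Ccr8 7.28% to 9.74% and 3.33% to 4.45%. These shares describe the makeup and were not tested, and since they add up to a whole a fall in Cxcr4 raises the others.

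**Figure D3:**
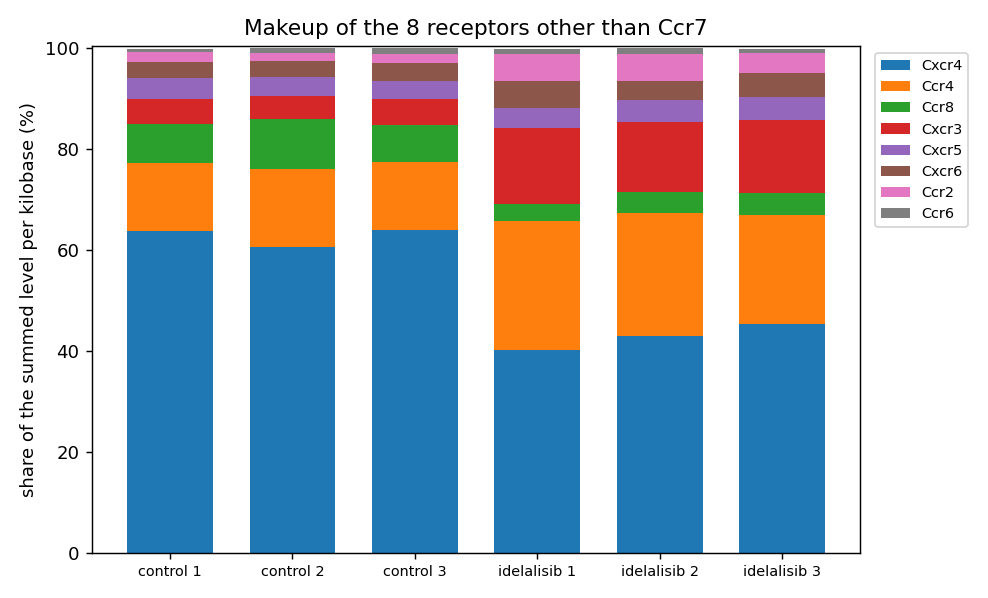
Share of each of the 8 receptors other than Ccr7 in their summed level per kilobase (vertical axis, percent), 1 bar per library. Cxcr4 takes 60.6% to 64.0% of the control bars and 40.2% to 45.4% of the idelalisib bars, and the Cxcr3 and Ccr4 sections are wider in the idelalisib bars.

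Stretches just before the start of 3 receptor genes that were called are given next, to show the DNA beside the largest rise and the 2 falls. They come from RefSeq (GRCm38.p6, the assembly of mm10), are written 5′ to 3′ on the gene's strand, leave out bases inside the gene of the deposited table, and have in capitals any match to CACCC on either strand, the core letters bound by KLF factors. The Cxcr3 stretch is chrX:101734270-101734397 on the minus strand, that of Ccr8 chr9:120091883-120092113 on the plus strand and that of Cxcr4 chr1:128592300-128592549 on the minus strand.
Cxcr3: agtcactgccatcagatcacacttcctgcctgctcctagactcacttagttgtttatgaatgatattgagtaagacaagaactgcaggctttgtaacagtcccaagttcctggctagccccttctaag
Ccr8: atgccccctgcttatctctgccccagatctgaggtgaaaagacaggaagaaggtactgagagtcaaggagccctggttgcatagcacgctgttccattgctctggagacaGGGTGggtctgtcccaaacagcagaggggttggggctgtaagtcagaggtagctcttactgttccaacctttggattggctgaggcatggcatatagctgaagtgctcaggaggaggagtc
Cxcr4: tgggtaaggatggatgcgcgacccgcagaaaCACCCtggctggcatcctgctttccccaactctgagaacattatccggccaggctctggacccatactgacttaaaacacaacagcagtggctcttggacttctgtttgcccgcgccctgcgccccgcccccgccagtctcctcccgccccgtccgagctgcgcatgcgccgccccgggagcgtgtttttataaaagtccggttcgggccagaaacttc

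The Cxcr3 stretch holds no such match and the other two hold 1 each. RefSeq held 8 windows of 250 bases before a start for 7 of the 9 receptors, 2 of them for Ccr6 (none for Ccr7 and Cxcr5). Several of these starts lie inside the gene of the deposited table, so the window of Ccr4 and 1 window of Ccr6 fall wholly within the gene, that of Ccr2 has 233 bases and that of Cxcr3 122 bases within it. CACCC occurred in 3 of the 8 windows (Ccr4, Ccr8 and Cxcr4), against 52.0% of all 32851 windows of the same length, and outside the gene for Ccr8 and Cxcr4. The HIF letters, ACGTG or else GCGTG, occurred in 4 windows (Ccr6, Ccr8, Cxcr3 and Cxcr4) against 38.6%, and outside the gene again for Ccr8 and Cxcr4. The GATA motif AGATAA occurred in 3 (Ccr2, Ccr6 and Ccr8) against 9.99%, and outside the gene for Ccr8. The NFAT motif GGAAAA occurred in 1, that of Ccr2, inside the gene, against 20.4%. The FOXO core GTAAACA, found in 3.17% of all windows, the T-box motif TCACACC, found in 3.33%, and the E-box CACGTG, found in 6.02% and itself holding the HIF letters, occurred in none of the 8. Each was searched on both strands, and the matches describe letters, not binding.

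Of 15 other chemokine receptor genes 6 passed the count filter, and of these 4 were higher and 1 lower with idelalisib. These calls are 83.3% of the 6, against 44.6% of all tested genes. Their median log2 fold change was 0.64, against 0.01 for all tested genes. Scaled by library size alone the split was 4 higher and 0 lower. Ccr3, the eotaxin receptor, had 2, 3 and 6 reads in control and 22, 15 and 17 in idelalisib libraries (edgeR adjusted p = 0.0032). Cxcr2, a receptor best known from neutrophils, rose from 10.3 ± 1.91 to 18.4 ± 3.83 CPM (log2 fold change 0.84, standard error 0.18, adjusted p = 0.00177 by edgeR). Among neutrophil genes beside it, S100a8, S100a9 and Csf3r had at most 3 reads in any library, while Ly6g rose by 1.59 on the log2 scale.

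Ccrl2, an atypical receptor that binds chemerin, was higher by 0.45 (edgeR adjusted p = 0.0389), and Ccr1, a receptor for CCL3 and CCL5, was lower by 0.77 on the log2 scale (edgeR adjusted p = 0.0369). Both calls were fragile. That of Ccrl2 depended on control replicates 1 and 3 and on idelalisib replicates 2 and 3, and leaving out any of them ended it (adjusted p up to 0.157), and that of Ccr1 was lost without any 1 library except idelalisib replicate 2 (up to 0.117) and under 4 other settings. Cxcr1 was at 34.1 ± 2.84 and 31.4 ± 1.87 CPM, which did not pass (edgeR adjusted p = 0.363). Genes lying side by side on chromosome 9 went different ways: from 123962124 to 124113557 Ccr1 was lower while Ccr3 and Ccr2 were higher, and nearby Cxcr6 did not pass.

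Most chemokine genes were too low to test in these cultures. Of 24 ligand genes 9 passed the filter, and of these 3 were higher and none lower with idelalisib, while 6 did not pass. These calls are 33.3% of the 9, against 44.6% of all tested genes, and the median log2 fold change was 0.03. Of the 24 ligand genes 7 had no read in any library. Ccl20, the ligand of CCR6, had 1, 2 and 1 reads in control and 29, 51 and 18 in idelalisib libraries (edgeR adjusted p = 9.51e-05). Ccl5, a CCR1 ligand, rose from 8.89 ± 2.12 to 55.7 ± 1.38 CPM (log2 fold change 2.64, standard error 0.14, adjusted p = 1.3e-08 by edgeR). Cxcl10, a CXCR3 ligand, was at 0.375, 1.59 and 1.43 CPM in control and 1.78, 3.47 and 2.57 CPM in idelalisib libraries (edgeR adjusted p = 0.0344), a call lost without control replicate 1 (log2 fold change 0.78, adjusted p = 0.126) or idelalisib replicate 2 or 3. Ccl22, a CCR4 ligand, was at 1.83 ± 0.339 and 0.955 ± 0.579 CPM (edgeR adjusted p = 0.0893; 0.0359 without idelalisib replicate 1). Cxcl16, the CXCR6 ligand, was at 0.967 ± 0.425 and 0.850 ± 0.134 CPM (edgeR adjusted p = 0.764), and the CCR8 ligand Ccl1 had 2 reads over the control and 0 over the idelalisib libraries and was not tested.

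Of 43 tested genes that carry or shorten the receptor signal 5 were higher and 8 lower (30.2% called, against 44.6% of all tested genes). Their median log2 fold change was -0.04. Scaled by library size alone the split was 12 higher and 6 lower. The called genes with the greatest changes were all lower. Pik3r6 and Pik3cg, the p84 regulatory and p110 gamma catalytic subunits of the PI3K that G proteins activate, fell by 2.17 and 0.89 on the log2 scale. The fall of Pik3r6 rested on 38 to 58 reads per control and 9 to 12 reads per idelalisib library (edgeR adjusted p = 0.000134). Pik3r5, another regulatory subunit of this PI3K, was higher, at 55.7 ± 3.81 and 68.1 ± 2.17 CPM (log2 fold change 0.29, edgeR adjusted p = 0.0143). It was called in 13 of 15 alternatives. Rgs2 and Rgs16, which shorten G protein signals, fell by 1.22 and 0.83 on the log2 scale, Rgs2 from 95.1 ± 2.56 to 41.0 ± 3.04 CPM. The call of Rgs16 was lost without idelalisib replicate 3 (adjusted p = 0.119). Rgs1, another such regulator, fell by 0.30 on the log2 scale (edgeR adjusted p = 0.00643; 0.14 by library size alone). Gnai2, the main inhibitory G protein alpha subunit of lymphocytes, and Grk2, a kinase that desensitises receptors, were at 704.0 ± 9.13 and 729.3 ± 70.2 CPM and at 383.2 ± 6.43 and 384.7 ± 33.4 CPM (edgeR adjusted p = 0.646 and 0.959).

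Of 31 tested transcription factors known to act on receptor genes of this kind 9 were higher and 13 lower, with a median log2 fold change of -0.10. These calls are 71.0% of the 31, against 44.6% of all tested genes. Scaled by library size alone the split was 12 higher and 9 lower. Klf2, which in T cells sustains S1pr1 and restrains inflammatory receptors, rose from 3.53 ± 0.677 to 15.7 ± 4.04 CPM (log2 fold change 2.15, standard error 0.22, adjusted p = 4.01e-06 by edgeR). Eomes, a T-box factor, rose from 2.88 ± 0.316 to 9.30 ± 1.88 CPM, while Tbx21, the T-box factor that activates Cxcr3, did not pass (log2 fold change 0.02, edgeR adjusted p = 0.837). Bcl6, which favours Cxcr5, fell from 31.7 ± 9.15 to 8.89 ± 2.15 CPM (edgeR adjusted p = 0.00021). Gata3, the Th2 factor linked to Ccr4 and Ccr8, was at 7.31 ± 0.620 and 7.09 ± 0.851 CPM (edgeR adjusted p = 0.855). Foxo1, which with Klf2 supports Ccr7, fell by 0.33 on the log2 scale (edgeR adjusted p = 0.00528; 0.103 by library size alone), and Tcf7 was at 233.3 ± 9.24 and 272.6 ± 40.8 CPM (edgeR adjusted p = 0.0787; 0.0219 without idelalisib replicate 1 and 0.00584 by library size alone).

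Among 18 other homing genes tested 3 were higher and 5 lower (44.4% called, against 44.6% of all tested genes). Their median log2 fold change was -0.07, and by library size alone 5 were higher and 2 lower. S1pr1, the receptor by which T cells leave lymph nodes, was at 128.5 ± 3.87 and 125.2 ± 10.8 CPM (edgeR adjusted p = 0.753). Ptger4, a prostaglandin receptor, and Gpr18, a lipid receptor, rose by 0.90 and 0.70 on the log2 scale. Itga4, the alpha 4 integrin chain, was at 109.2, 98.6 and 139.4 CPM in control and 41.3, 71.0 and 34.3 CPM with the drug (log2 fold change -1.25, edgeR adjusted p = 0.0286), and leaving out replicate 1 or replicate 3 of either group ended its call (adjusted p up to 0.0729).

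The genes whose log2 CPM ran most closely with the 2 called receptors of greatest change were looked up over the 6 libraries, among protein-coding genes of at least 10 CPM. For Cxcr3 they were Disp1, Stmn1 and Mmab, with Pearson correlations of 0.9996, 0.9992 and 0.9988. For Ccr8 they were Arfip2, Nkg7 and Atxn10, at 0.9975, 0.9972 and 0.9964. All 6 libraries share the difference between groups, and 7.9% of 8720 genes passed 0.95 with Cxcr3 and 3.45% of 8721 with Ccr8, so these values describe the libraries only.

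**Figure D4:**
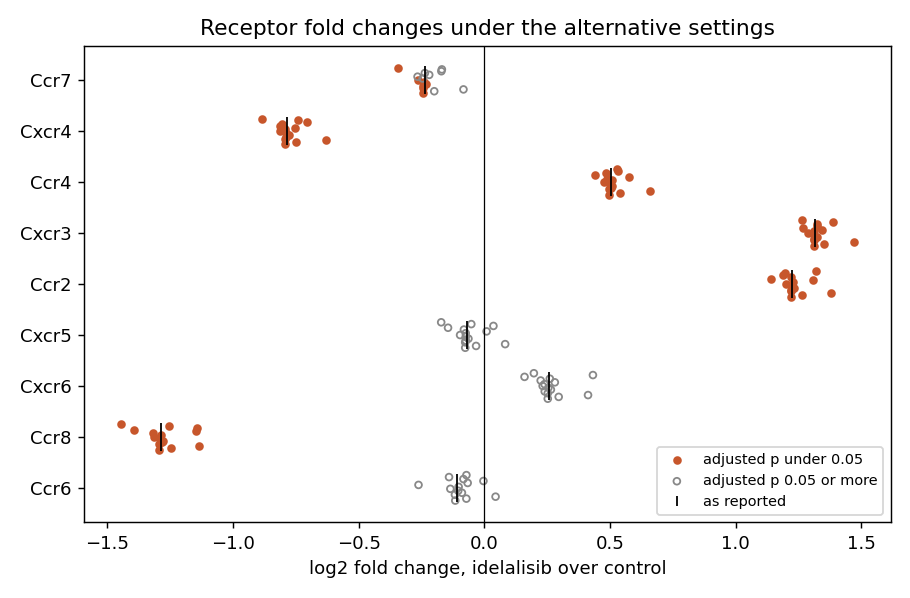
Log2 fold change of each receptor (horizontal axis) as reported (vertical ticks) and in each alternative setting (points, filled where the adjusted p was under 0.05). The points of Cxcr3, Ccr2, Ccr4, Cxcr4 and Ccr8 stay filled and on their side of 0, those of Ccr7 are mixed, and those of Cxcr5 and Ccr6 reach both sides of 0.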

How the data were processed

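RNA of mouse CD4+ T cells was sequenced in 6 libraries, 3 control and 3 idelalisib, grouped by sample titles. Per the labels' protocols it was extracted with Trizol, selected on poly-T beads and copied into cDNA from random hexamers. Each value is a raw count of reads per gene, as deposited by the authors. Gene lengths were those deposited by the authors. The build was mm10, and the tools were featureCounts 1.5.0-p3, HISAT2 2.0.5 and fastp, per the submitters' processing notes. For the annotation release, the strand setting and multimapped reads, the labels give nothing.

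Low counts were removed with filterByExpr (minimum count 10, minimum total 15). Counts were scaled with TMM and tested with the quasi-likelihood test of edgeR 4.0.16 in R 4.3.3 (robust, group alone, Benjamini-Hochberg over 14530 genes), with calls made below an adjusted p of 0.05. Positive log2 values mean higher with idelalisib. Standard errors were derived from each F statistic. The code was tested on simulated data. The common biological coefficient of variation was 0.109, and no 2 libraries of a group were duplicates (chi-square per degree of freedom 4.63 to 18.1).

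Alternatives were RLE, upper-quartile and library-size scaling, DESeq2 1.42.0, limma-voom (limma 3.58.1), a lower count filter, a minimum count of 30, protein-coding genes alone, a replicate block and leaving out each library. The receptors and gene lists were chosen with earlier results of these data known. Named genes are the 9 receptors, the other receptors tested, the 4 called genes of greatest change averaging at least 1 CPM in each further list, genes named regardless of outcome, the 3 genes most correlated with each of 2 receptors (prior count 2), and markers. Pik3r5 was also named, beside Pik3r6. Words of 50 bases were compared on GENCODE M21 transcripts. Some genes that the naming rule picks are not reported here.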

Additional observations from a re-analysis of the deposited data

How the results depend on the processing

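Over the 15 alternatives the number of genes called ranged from 5103 to 7180, both with 1 library left out, against 6479. Every alternative called 3 receptors higher and 2 or 3 lower, the third being Ccr7. Scaling by library size alone shifted the all-gene median from 0.01 to 0.16, and values of uncalled genes turned sign under it (log2): Ccr6 0.045, Cxcr5 0.083, Cxcr1 0.034, Gata3 0.11 and S1pr1 0.12. S1pr1 was 0.0015 with upper-quartile factors, Grk2 -7.5e-05 with RLE and -0.020 on protein-coding genes alone, and Tbx21 -0.0028 on the latter. With 1 library left out the log2 fold change ranged from -0.17 to 0.036 for Cxcr5, -0.43 to 0.20 for Cxcl16, -0.13 to 0.032 for Gata3, -0.011 to 0.12 for Gnai2, -0.053 to 0.067 for Grk2, -0.065 to 0.041 for S1pr1 and -0.0071 to 0.072 for Tbx21. The labels do not say that shared replicate numbers mark one mouse or day, so the numbers were not taken as pairs. Deviations of same-numbered libraries correlated at 0.08, -0.13 and -0.10, and not every library correlated best with its own number. A replicate block gave 5961 calls and moved the call of no receptor among the 9, while Ccr1 and Itga4 lost theirs. Depth limits Ccr6 most, at 22 to 28 reads per library.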
